A study of Homo sapiens with 20 samples.

Results

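The cytosolic ribosomal protein genes encode the proteins of the small (40S) and large (60S) subunits of the ribosome that translates nuclear messages. In HEL cells they were found by name, as protein-coding genes called RPL, RPS, RPLP or RPSA. The RPS6K kinases and names with a P after the number were left out, among them RPS27AP5, RPS19BP1 and the read-through gene RPL36A-HNRNPH2. The rule gave 88 genes in each of 3 tables, of 55093, 55093 and 34213 genes listed. Of these, 77 are core genes, 31 of the small and 46 of the large subunit. A further 9 are divergent paralogues, second copies of a core gene (RPL3L, RPL7L1, RPL10L, RPL22L1, RPL26L1, RPL36AL, RPL39L, RPS27L and RPS4Y1). The last 2 are read-through genes, RPS10-NUDT3 and RPL17-C18orf32, which had no count in any of the 20 libraries. FAU, which encodes the small subunit protein RPS30, carries another name and was not a member.

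HEL is a human erythroleukaemia line with the JAK2 V617F allele, and the study sequenced 20 HEL libraries in 10 groups of 2. The tables addressed inhibition of the phosphatases DUSP1 and DUSP6 with BCI, inhibition of the RSK kinases with BI-D1870, and long-term adaptation to JAK2 inhibitors. In the first table cells received 1 µM BCI for 4 h or 48 h, each time beside solvent controls (DMSO). In the second, cells received 10 µM BI-D1870 with 1 µM BCI (the pair), 10 µM BI-D1870 alone or DMSO for 24 h. The third held fedratinib-persistent cells (FedP) and ruxolitinib-persistent cells (RuxP), made by prolonged culture with a JAK2 inhibitor, and parental HEL cells. All groups come from 1 cell line that carries the allele. The labels do not say whether persistent cells are clones, which drug concentration they were kept in, or whether replicates were separate cultures, so the p-values here describe how far these libraries differ, a spread that may be technical. Each library held 51799814 to 84452743 counts, and values below are CPM, library-scaled counts with TMM normalization, unless another unit is given. Called means a Benjamini-Hochberg adjusted p under 0.05 over all genes tested, by edgeR's quasi-likelihood test.

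Ribosomal proteins are made in near-equal amounts and assembled on ribosomal RNA in the nucleolus. Their messages begin with a C followed by a run of pyrimidines, the terminal oligopyrimidine (TOP) motif, through which mTOR and the RNA-binding protein LARP1 control their translation. RPS6 is the classic phosphorylation target of S6 kinase and RSK. RNA levels were measured here, and translation was not.

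Many of the members' listed transcription starts lie in a C/T run. The runs counted here hold the first base, which may be C or T, and may begin before it. They are thus a looser measure than the TOP motif. RefSeq starts on GRCh38.p14 were matched for 70 of the 88 members, which have 87 starts. The first base was C at 62.1% of them, against 14.7% of all 35116 starts in the same table. A C/T run of 5 or more bases over the first base was present at 60.9%, against 9.60% of all starts. The letters CTTTCC stood between 20 bases before and 30 after the start in 29.9% of member starts and 2.35% of all starts, and their reverse complement GGAAAG in 1.15% and 2.20%. The ETS-type letters CCGGAAG stood in the 300 bases around the start in 24.1% of member starts and 5.75% of all starts, and the reverse complement CTTCCGG in 8.05% and 5.42%. No member start had the 2 motifs sharing bases. Among the divergent paralogues, 3 of 8 starts had a C/T run of 5 or more. The windows below, 10 bases before to 20 after the start, 5′ to 3′, show genes described in the results, and capitals mark the C/T run over the first base.
RPL26: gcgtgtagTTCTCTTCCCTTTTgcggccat
RPL28: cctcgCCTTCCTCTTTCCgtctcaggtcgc
RPS27: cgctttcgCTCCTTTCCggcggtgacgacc
RPS6: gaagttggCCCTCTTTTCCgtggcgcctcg
RPLP1: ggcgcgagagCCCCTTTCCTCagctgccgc
RPL22: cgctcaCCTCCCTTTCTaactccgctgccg
RPL22L1: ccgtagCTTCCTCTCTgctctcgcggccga
RPS27L: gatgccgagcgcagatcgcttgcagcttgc
RPL7L1: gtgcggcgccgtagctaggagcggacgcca
On GRCh38.p14 these windows lie at chr17:8383174-8383203 (RPL26), chr9:19380217-19380246 (RPS6), chr1:6199576-6199605 (RPL22), chr3:170870176-170870205 (RPL22L1) and chr15:63157458-63157487 (RPS27L) on the minus strand. Those on the plus strand lie at chr19:55385922-55385951 (RPL28), chr1:153990752-153990781 (RPS27), chr15:69452808-69452837 (RPLP1) and chr6:42879606-42879635 (RPL7L1). RPL22L1 shares the run with its core partner RPL22, while RPS27L and RPL7L1 have no run at the listed start.

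Ribosomal protein messages were among the most abundant in HEL cells, taking 5.19 to 11.5% of all counts. Per kilobase of coding sequence, RPLP1, the acidic stalk protein, and RPS6 led in DMSO-treated cells at 4 h, with 8412 and 4951 CPM per kb, beside a median of 1777 over the 77 core genes. RPL17, RPL36A and RPS10 were lowest on that scale, at 20.2, 18.9 and 12.4 CPM per kb. For these 3 genes, 91.0%, 77.6% and 84.0% of the bases of the principal transcript also lie in exons of a read-through gene, so their counts are uncertain. Of the divergent paralogues, RPL22L1 averaged 36.4 and RPS27L 61.9 CPM per kb in the same cells, and RPL10L and RPL3L stood at 0.328 and 0.179. RPL36AL, at 305 CPM per kb, was above RPL36A, whose counts are uncertain. The tables differed in overall level, and since each was fitted by itself with its own controls, no test was made between tables.

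HEL marker genes were present throughout (GATA1 at 105 to 283, TAL1 at 333 to 486 and ITGA2B at 883 to 2210 CPM as group means), and the 7 lymphoid, monocyte, epithelial and stromal markers did not exceed 0.928. Libraries with more mitochondrially encoded RNA were found in some groups, as the plot of shares shows. In the persistent table the share was 12.4 and 12.6% in FedP, 25.7 and 23.1% in RuxP, and 15.6 and 23.6% in parental libraries, the second parental library lying near RuxP. In the second table it was 5.72 and 5.28% with the pair, 6.17 and 6.20% with BI-D1870 and 3.58 and 3.64% with DMSO.

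**Figure D1:**
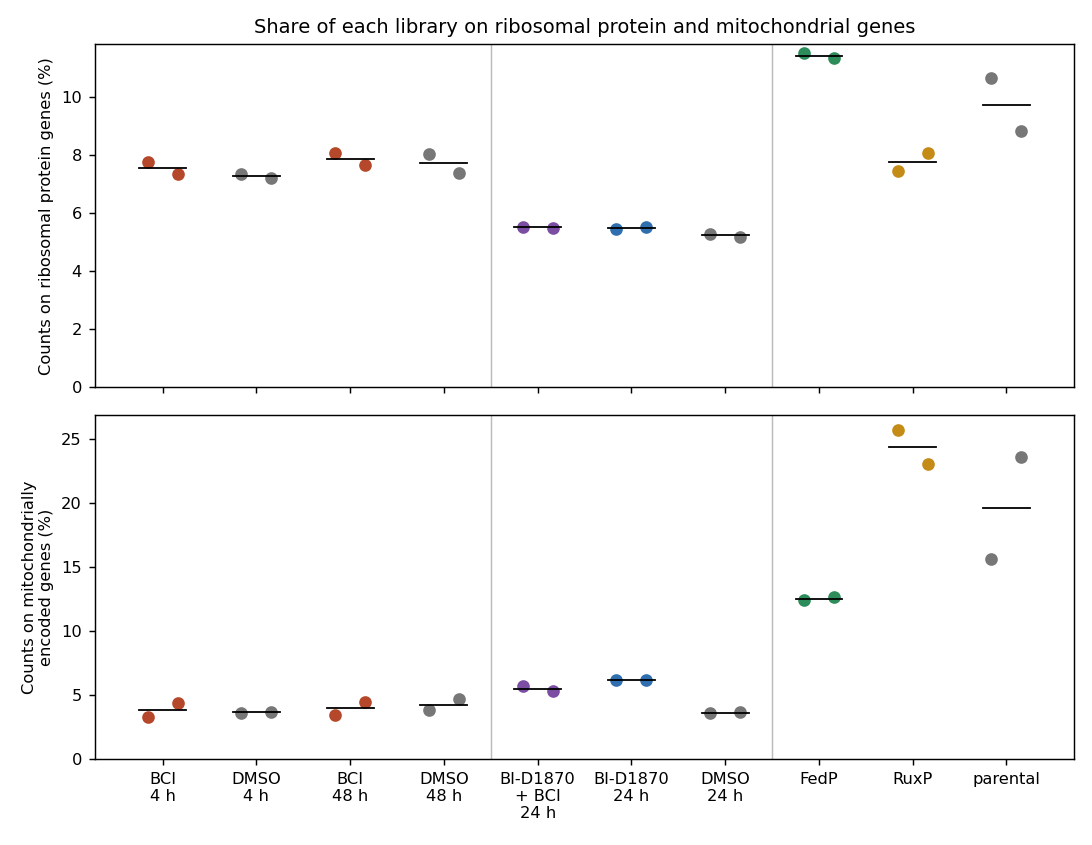
Share of each library's counts, in percent, on the ribosomal protein genes (top) and on mitochondrially encoded genes (bottom). Points are libraries in order of replicate number, bars are group means, and vertical lines separate the 3 tables. Within the persistent table, FedP libraries had the highest ribosomal protein share (11.5 and 11.3%) and RuxP libraries held 7.44 and 8.07%.

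No ribosomal protein gene was called after 4 h of BCI, although genes that build ribosomes fell. Of 86 members tested, 0 were called, beside 10.7% of all genes tested (4.8% higher and 5.94% lower). By unadjusted p under 0.05 there were 2 members, and DESeq2 called 1, RPL22L1. The core genes kept within a narrow band, from -0.44 on the log2 scale for RPS10 to 0.11 for RPL39, with a median of 0.02, the same as the median of all genes tested. RPS6 stood at 3883 and 3844 CPM with BCI and 3753 and 3644 with DMSO, a log2 difference of 0.06 ± 0.08 (SE; adjusted p = 0.71). The acidic stalk proteins RPLP0, RPLP1 and RPLP2 differed by 0.03, 0.07 and 0.03, and the 5S particle proteins RPL5 and RPL11, which can bind MDM2, by 0.05 and 0.06. None of these passed the test.

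In the same libraries, 24 of 30 ribosome biogenesis genes fell and 0 rose, with a list median of -0.50. RRS1, needed for 60S assembly and for recruiting the 5S particle, had 36.3 and 35.9 CPM with BCI against 75.3 and 78.3 with DMSO (log2 -1.09 ± 0.08, adjusted p = 0.00011). NOP16 stood at 19.1 and 19.4 CPM with BCI and 36.8 and 39.1 with DMSO. Both genes fell to about the same degree, and the groups did not overlap. Among chaperones and importers of ribosomal proteins 3 of 12 fell, of which HEATR3, a carrier of RPL5, had a log2 change of -0.80 and GRWD1, a chaperone of RPL3, of -0.59. Of 23 other TOP messages, such as elongation factors, 1 fell and 0 rose, that being EIF4A2 at -0.37. Of 21 translation control genes 3 fell, led by RPS6KA1, which encodes RSK1 (-0.64), and EEF2K (-0.61).

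Among the divergent paralogues, RPL22L1, the paralogue whose message RPL22 is known to repress in mouse, stood at 9.18 and 10.9 CPM with BCI and 13.5 and 13.1 with DMSO at 4 h, with no overlap. Its log2 difference of -0.40 ± 0.12 had an adjusted p of 0.057. At 48 h it had 15.1 and 15.0 CPM with BCI and 12.8 and 12.4 with DMSO, again without overlap but in the other direction. The log2 difference between the 2 responses was 0.66 ± 0.16 (adjusted p = 0.063) and was not called. It was called by DESeq2 (adjusted p = 0.012), with a replicate block, without a low-count filter and with the GC trend of each library removed. With DESeq2 size factors or with TMM without the members it was not called. RPL22 itself had log2 differences of 0.04 at 4 h and 0.06 at 48 h.

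At 48 h of BCI 0 of 86 members were called, beside 0% of all genes tested. Unadjusted, 1 member had a p under 0.05, and 0 were called by DESeq2. Core genes had a median of 0.05, from -0.22 for RPL36A to 0.10 for RPSA, the laminin receptor protein of the small subunit. The ribosome biogenesis list likewise had 0 of 30 called by edgeR and 0 with an unadjusted p under 0.05. For the difference between 48 h and 4 h of BCI, 0 members were called by edgeR, beside 3.46% of all genes (2.08% higher and 1.37% lower), with 3 at an unadjusted p under 0.05 and 1 called by DESeq2, while 19 of 30 biogenesis genes were called, all higher at 48 h.

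Between the DMSO times, 2 members fell and 0 rose, beside 26.6% of all genes tested (13.5% higher and 13.2% lower), and both were divergent paralogues. RPL39L, a copy of RPL39 best known from the testis, had 1.47 and 1.07 CPM at 48 h against 2.45 and 2.46 at 4 h (log2 -0.95 ± 0.24, adjusted p = 0.018). RPL7L1, a nucleolar relative of RPL7, had 179 and 181 CPM at 48 h against 217 and 214 at 4 h (log2 -0.26 ± 0.07, adjusted p = 0.021). For both, the times did not overlap, and the calls were lost in 3 and 4 of 17 alternatives. Their core partners RPL39 and RPL7 differed by 0.19 (adjusted p = 0.083) and 0.06. Biogenesis genes fell here as well, 25 of 30, with PES1, a 60S assembly factor, at -1.14. Without either DMSO library of 4 h 0 members were called by edgeR, and 8 were called without the first DMSO library of 48 h.

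**Figure D2:**
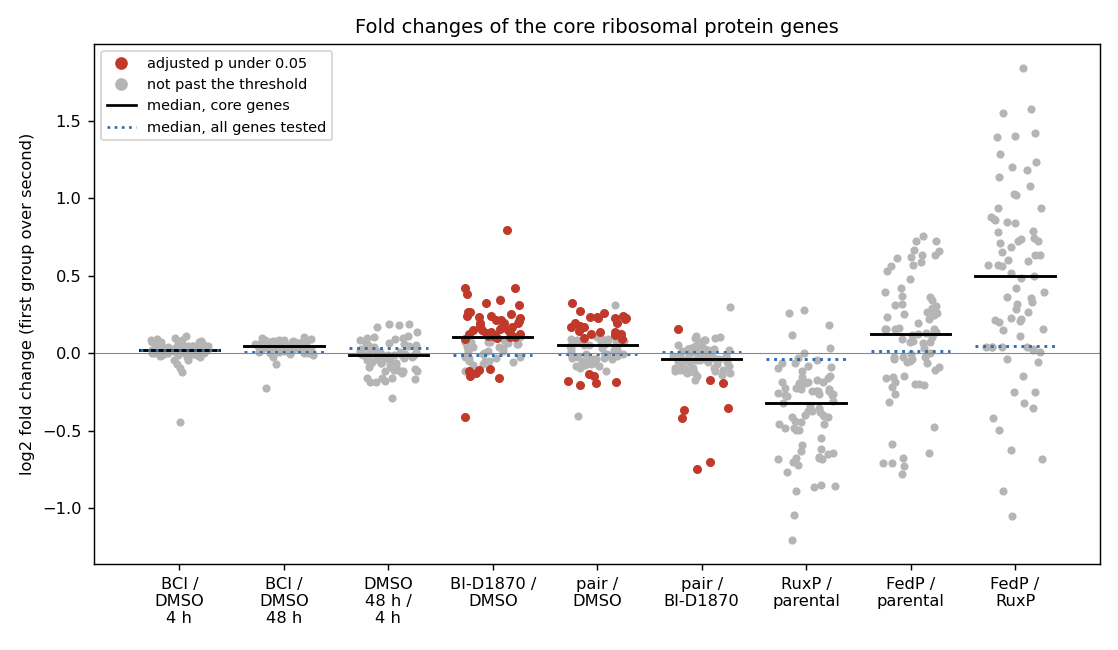
Log2 fold change of the 77 core ribosomal protein genes in 9 comparisons, first group over second. Red points were called, grey points were not, black bars are medians of the core genes and dotted blue bars medians of all genes tested. Core genes lie close to 0 with BCI, carry the calls in the BI-D1870 table and scatter widely without a call between FedP and RuxP.

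BI-D1870 changed 49 of the 85 ribosomal protein genes tested, most by small steps. Of these, 41 rose and 8 fell, beside 47.1% of all genes called, 22.8% of all genes higher and 24.3% lower. The member median was 0.10 on the log2 scale, and -0.01 over all genes. On the small subunit 18 of 31 core genes rose and 2 fell, and on the large subunit 21 of 46 rose and 5 fell. Members took 5.45 and 5.51% of counts with BI-D1870 and 5.28 and 5.19% with DMSO, which did not overlap (exact two-sided permutation p = 0.333, the smallest that 2 against 2 can give). Of the 41 rises, 23 kept the call in each of 15 alternative settings. Of the 8 falls, 0 did.

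The largest rise was that of RPL26, a large subunit protein near the exit tunnel that is known to bind the p53 message. It had 54.3 and 55.8 CPM with BI-D1870 against 33.6 and 30.1 with DMSO (log2 0.79 ± 0.06, adjusted p = 2.6e-09). Over the alternatives its log2 difference ranged from 0.63 to 0.87. RPL26 is among the lowest core genes, at 73.2 CPM per kb with DMSO at 24 h, beside a core median of 1183. Per 100 RPL26 counts there were 51.8 counts on its pseudogenes, so its level is uncertain. RPS27L, a paralogue of RPS27 that p53 is known to induce, had 25.3 and 26.1 CPM with BI-D1870 against 18.4 and 18.9 with DMSO (log2 0.47 ± 0.07, adjusted p = 1.5e-05). Neither pair of groups overlapped. RPL28 had 1641 and 1734 CPM with BI-D1870 and 1324 and 1198 with DMSO (log2 0.42 ± 0.05, adjusted p = 7.9e-07). RPS29, a zinc-binding protein of the small subunit head, had 172 and 176 CPM with BI-D1870 and 131 and 136 with DMSO (log2 0.38 ± 0.04, adjusted p = 2e-07). All these groups were apart, and the genes ranged from scarce to abundant. RPL36A also rose by 0.42, at only 4.61 and 4.66 CPM with BI-D1870 and 3.05 and 3.85 with DMSO, and lost the call in 5 of 15 alternatives.

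Core members of special role were named for that role, whereas the genes above were named for the size of their rise. RPS6 had 3253 and 3084 CPM with BI-D1870 against 3043 and 2836 with DMSO, a rise of 0.11 ± 0.04 (adjusted p = 0.037). In the stalk, RPLP1 rose by 0.26 and RPLP0 by 0.11, and RPLP2 differed by 0.06 without a call. RPS3, a small subunit protein also known in DNA repair, rose by 0.15 and RPS14 by 0.13. RPS19, RPL5, RPL11, RPL3, RPL10A and RPS27A, which carries a ubiquitin at its start, were not called, with log2 differences of 0.00 to 0.10. The test was passed by RPL11 in 10 of 15 alternatives, by RPL3 in 6, by RPL10A in 3 and by RPL5 and RPS19 in 2 each.

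Falls were fewer. RPL22L1 had 14.4 and 12.3 CPM with BI-D1870 against 17.7 and 15.6 with DMSO (log2 -0.32 ± 0.10, adjusted p = 0.0089), and RPL22 fell by 0.11 with 586 and 593 CPM with BI-D1870 against 652 and 620 with DMSO. These calls were lost in 2 of 15 alternatives for RPL22L1 and in 8 for RPL22. RPS27 rose by 0.31, as its paralogue RPS27L did. RPL17 fell by 0.41, RPL21 by 0.16 and RPL35 by 0.13, and lost the call in 3, 2 and 6 of 15 alternatives. With pseudogene counts added RPL17 stood at -0.15 (adjusted p = 0.18, within 0.0023 to 0.26 over its alternatives). RPSA fell by 0.10 and lost the call in 10 of 15 alternatives. RPL39 rose by 0.24, while RPL39L at 0.40 ± 0.18 and RPL26L1 at 0.21 ± 0.09 did not pass. The test was passed by RPL26L1 in 4 of 15 alternatives.

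Members with and without the pyrimidine run are found among those that rose. With a C/T run of 5 or more at a listed start, 25 of 52 rose and 6 fell, with a median of 0.10. With a shorter run or none, 9 of 16 rose and 1 fell, with a median of 0.15. Of the 17 members tested that have no listed start, 7 rose and 1 fell, with a median of 0.07. Across the 77 core genes the Pearson correlation of transcript GC content with the log2 change was -0.05, the points sharing the same 4 libraries. Among other lists, biogenesis genes had 3 rises and 16 falls of 30. RRN3, the initiation factor of RNA polymerase I, fell by 0.84, FBL, the methyltransferase fibrillarin, fell by 0.61, and NOP56 rose by 0.48. Other TOP messages had 10 rises and 7 falls of 23, led by TPT1, the translationally controlled tumour protein, at 0.63, and chaperones and importers had 5 and 4 of 12, with the importer IPO5 at -0.75 and TSR2, the carrier of RPS26, at 0.42. Translation control genes had 9 and 8 of 21, with the eIF4E kinase gene MKNK2 at 0.77, the eIF4E-binding proteins EIF4EBP2 at 0.72 and EIF4EBP1 at -0.63, and the eIF4A inhibitor PDCD4 at -0.76. Of the 10 erythroid and megakaryocyte markers 2 rose and 8 fell, their summed level being 4293 and 4384 CPM with BI-D1870 and 5283 and 5451 with DMSO. In bulk RNA fewer cells of a type and less RNA per cell cannot be told apart, and the part of these markers and of the higher mitochondrial share in the member results was not tested. With mitochondrially encoded genes left out, the number of members called stayed within 1.5 times that given here.

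Against DMSO, with the same DMSO libraries as above, the pair gave 31 member calls. Of 85 members 24 rose and 7 fell, beside 46.8% of all genes called, 22.6% of all genes higher and 24.3% lower, so the share of members that rose was close to the background. The median was 0.05. The small subunit had 7 rises of 31 and the large subunit 16 of 46. RPL28 had 1661 and 1489 CPM with the pair against 1324 and 1198 with DMSO (log2 0.32 ± 0.05, adjusted p = 2.2e-05). RPS27 had 553 and 537 CPM with the pair against 455 and 449 with DMSO (log2 0.27), and RPS27L 22.6 and 22.8 against 18.4 and 18.9 (0.29). These groups did not overlap. RPL13 rose by 0.26 and RPL15 by 0.24, and RPL3, RPL10A and RPL11 rose by 0.17, 0.17 and 0.13. RPL22L1 fell to 12.0 and 12.2 CPM with the pair, against 17.7 and 15.6 with DMSO (log2 -0.46 ± 0.10, adjusted p = 0.00043). RPL21, RPL35 and RPL23A fell by 0.21, 0.18 and 0.18. The call of RPL23A was lost in 4 of 15 alternatives, among them added pseudogene counts (log2 -0.06, adjusted p = 0.37, within 0.0015 to 0.37 over its alternatives). RPS6 differed by 0.05 (adjusted p = 0.36). Biogenesis genes had 1 rise and 19 falls of 30, other TOP messages 9 and 10 of 23, chaperones and importers 4 and 4 of 12, and translation control genes 9 and 8 of 21. The 10 erythroid and megakaryocyte markers had 2 rises and 8 falls, with summed levels of 3460 and 3818 CPM with the pair.

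**Figure D3:**
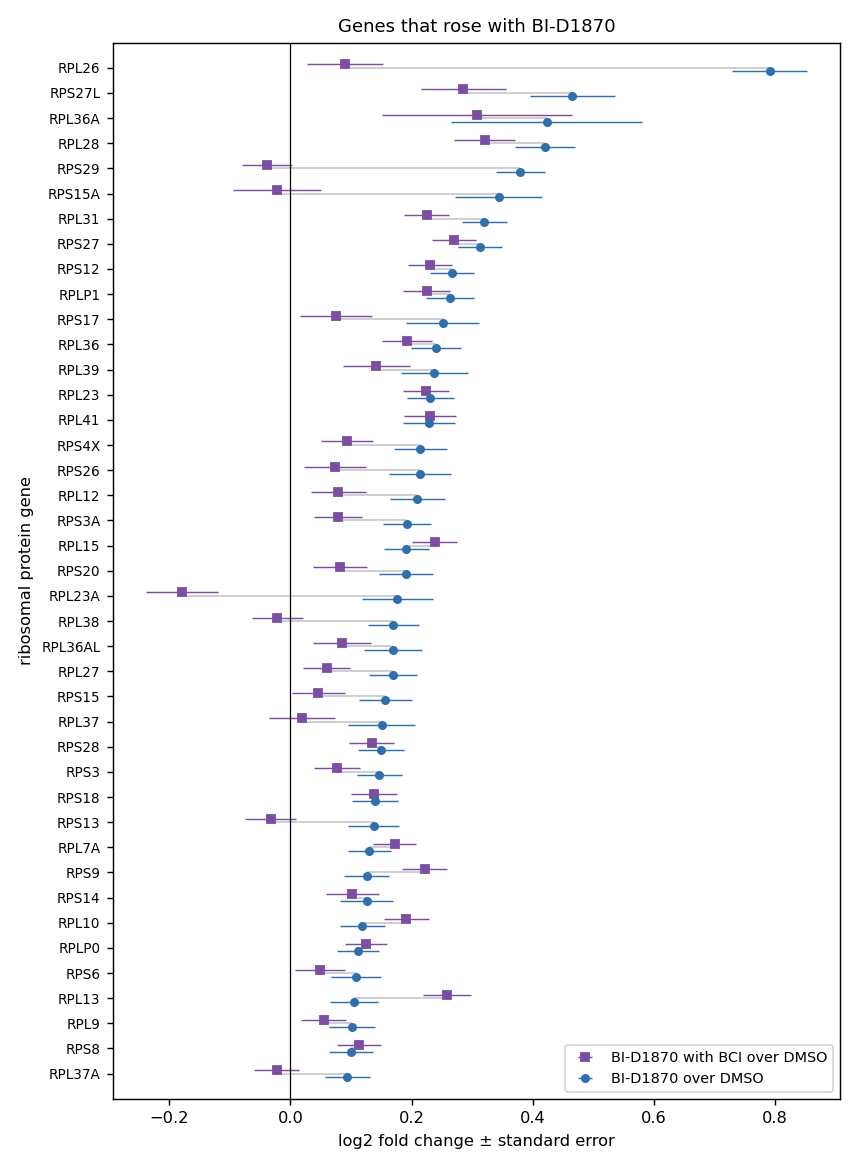
Log2 fold change ± standard error of the members that rose with BI-D1870 against DMSO, with a mean of at least 4 CPM, for the pair over DMSO (squares) and BI-D1870 over DMSO (circles). Both share the DMSO libraries. RPL26 lies at 0.79 with BI-D1870 and at 0.09 with the pair, while RPL28, RPS27 and RPL41 keep close values.

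The test of BCI on top of BI-D1870 set the pair directly against BI-D1870, sharing the BI-D1870 libraries with the comparison above. Of 85 members 1 rose and 7 fell, beside 4.71% of all genes called, 2.22% higher and 2.48% lower. RPL26 had 34.8 and 33.0 CPM with the pair against 54.3 and 55.8 with BI-D1870 (log2 -0.70 ± 0.06, adjusted p = 1e-06). RPS29 had 129 and 131 CPM with the pair against 172 and 176 with BI-D1870 (log2 -0.42 ± 0.04, adjusted p = 3.1e-06). Neither gene's groups overlapped, and with the pair both genes lay near their DMSO levels, RPL26 at 0.09 ± 0.06 against DMSO (adjusted p = 0.26) and RPS29 at -0.04 ± 0.04 (adjusted p = 0.48). These 2 falls kept the call in each of 15 alternatives, with adjusted p up to 0.00069 for RPL26 and 0.0012 for RPS29.

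RPS15A and RPL23A fell by 0.37 and 0.36, with adjusted p of 0.0043 and 0.001, and lost the call in 3 and 1 of 15 alternatives. RPL23A had 73.9 and 75.0 CPM with the pair and 89.6 and 101 with BI-D1870, which did not overlap. RPL38 fell by 0.19 (adjusted p = 0.011), and RPL13 rose by 0.15 (adjusted p = 0.03), and these calls were lost in 3 and 4 of 15 alternatives. The other 2 calls, named after their values were seen, were RPS13 at -0.17, lost in 4 of 15 alternatives, and RPS10 at -0.75, the second at only 2.03 and 2.30 CPM with the pair and 3.39 and 3.89 with BI-D1870. RPS10 lost its call, at -0.17 and an adjusted p of 0.43, when counts of its pseudogenes were added to it, the range over its alternatives being 0.0069 to 0.43. Several of these genes have many pseudogenes in the table. Per 100 counts of RPL26 there were 51.8 pseudogene counts, with 62.7 for RPL23A and 501 for RPS10. With pseudogene counts added, RPL26 still fell by 0.53 and RPL23A by 0.21. Without the first BI-D1870 library 4 members were called, without the second 2, and without the second library of the pair 3. Biogenesis genes had 0 rises and 3 falls of 30, and other TOP messages 1 and 2 of 23.

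**Figure D4:**
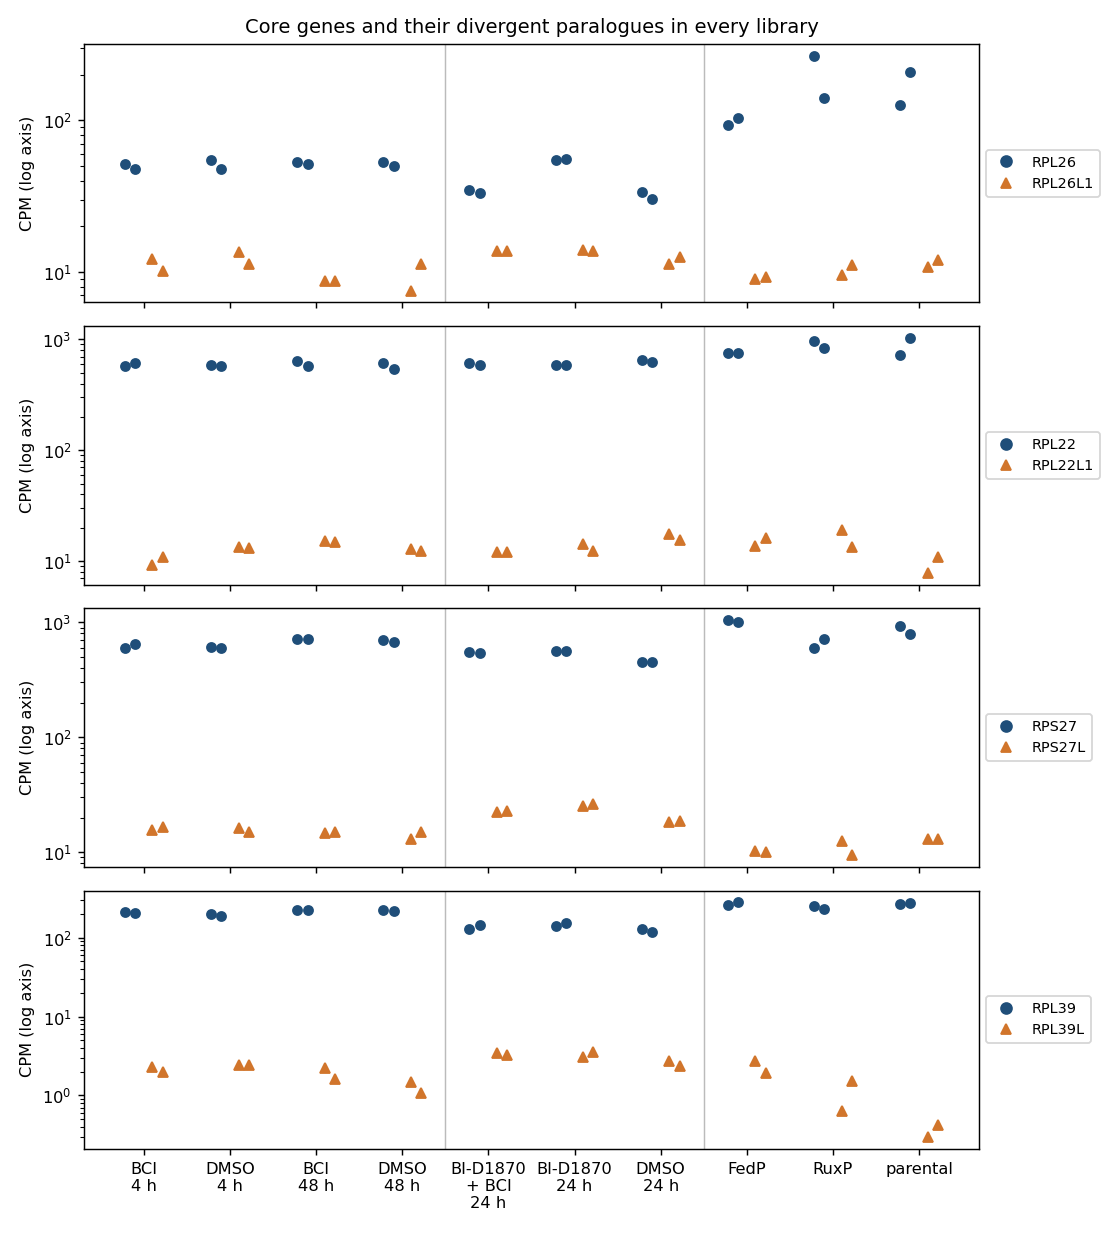
CPM, on a log axis, of 4 core genes (circles) and their divergent paralogues (triangles) in every library, the points of a group in order of replicate number. Vertical lines separate the tables, between which levels were not tested. RPL26 stands at 54.3 and 55.8 CPM with BI-D1870, above the 4 other libraries of its table. RPL26L1 lies between 11.3 and 13.9 there, with means of 11.9 with DMSO and 13.8 with BI-D1870.

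The parental libraries of the persistent table stood apart from each other. The stalk gene RPLP1 had 3937 and 3702 CPM in FedP, 906 and 1226 in RuxP, and 3703 and 1219 in parental cells. The first parental library thus lay near FedP and the second within the RuxP values. RPS14 had 594 and 570 CPM in FedP, 204 and 274 in RuxP, and 508 and 254 in parental cells, again with 1 parental library near each persistent group. The biological coefficient of variation was 26.9% in this table, 5.01% in the BI-D1870 table and 13.3% in the BCI table.

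For RuxP against parental 0 of 85 members were called, beside 6.44% of all genes tested (4.28% higher and 2.17% lower). By unadjusted p under 0.05 there were 18 members, and DESeq2 called 9. No share of all genes is given beside these counts, so they do not set members apart from other genes. The member median was -0.27 and that of all genes -0.04. For FedP against parental 1 member was called beside 6.63% of all genes (3.84% higher and 2.79% lower), the paralogue RPS4Y1 at 0.81 (adjusted p = 0.027), and the median was 0.12. That call was lost in 6 of 14 alternatives, including those with only the groups compared and without either RuxP library. RPS6 had 5801 and 5742 CPM in FedP, 5838 and 5545 in RuxP, and 7748 and 8294 in parental cells. Both persistent groups lay below both parental libraries, yet with adjusted p of 0.070 for FedP (log2 -0.47 ± 0.12) and 0.064 for RuxP (log2 -0.49 ± 0.12) neither was called. RPS6 passed in 3 of 14 alternatives for FedP and in 6 of 15 for RuxP. RPL39L had 2.74 and 1.93 CPM in FedP, 0.644 and 1.54 in RuxP, and 0.296 and 0.426 in parental cells. Its log2 difference of 2.69 ± 0.58 for FedP against parental had an adjusted p of 0.05, which is not under the threshold. It was called in 8 of 14 alternatives, with adjusted p from 8.0e-04 by DESeq2 to 0.38 without the first FedP library. RPL22L1 had 13.7 and 16.1 CPM in FedP, 18.9 and 13.5 in RuxP, and 7.86 and 10.9 in parental cells, apart from parental in both cases and not called. It passed in 1 of 14 alternatives for FedP and in 3 of 15 for RuxP.

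Counts of members called depended on which libraries were in the fit. No share of all genes called is given for these refits, so the counts do not set members apart from other genes. Without the second parental library, 37 members were called for RuxP against parental, 35 of them lower. Without the first, 37 were called for FedP against parental, 28 of them higher, and 3 for RuxP. Without either FedP library 0 were called by edgeR for FedP against parental, nor was any with the replicate block. The 2 comparisons share the parental libraries. With both parental libraries in, the calls were those given above.

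FedP libraries had a higher ribosomal protein share than RuxP libraries, 11.5 and 11.3% against 7.44 and 8.07% (exact two-sided permutation p = 0.333, the smallest possible). No member was called for FedP against RuxP, beside 1.39% of all genes tested (0.232% higher and 1.16% lower). Of 85 members, 45 had an unadjusted p under 0.05 and the libraries of 73 did not overlap. These 2 counts have no share of all genes beside them, so they do not set members apart from other genes. The median was 0.42, and 0.04 over all genes. RPLP1 had the highest log2 difference, 1.84 ± 0.49 (adjusted p = 0.098). These libraries did not overlap. RPSA had 994 and 961 CPM in FedP and 372 and 489 in RuxP (1.18 ± 0.26, adjusted p = 0.082). RPL26 was lowest, with 93.0 and 103 CPM in FedP and 266 and 140 in RuxP (-1.05 ± 0.36, adjusted p = 0.12). RPS6, RPL11, RPL5 and RPS27A differed by 0.01 to 0.04. The shared fit takes its spread from all 3 groups. The 1.39% of all genes belongs to that fit, and no share of all genes is given beside the counts of the other fits that follow. With only FedP and RuxP fitted 46 members rose and 6 fell, without the first parental library 47 and 6, without the second 45 and 3, and by DESeq2 35 and 3.

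The size of these differences went with 2 other measures. Across 84 members, the FedP minus RuxP difference had a Pearson correlation of 0.78 (Spearman 0.83) with the difference between the 2 parental libraries, which do not enter it. With transcript GC content it had 0.62 (Spearman 0.66). The same pair of values was 0.47 and 0.59 (Pearson) over 14017 other protein-coding genes, and other genes thus varied along with the members. In the 28 members of lowest GC content the median FedP minus RuxP difference was 0.04, in the middle 28 it was 0.44, and in the 28 of highest GC content 0.87. The points share libraries, depth and base composition, and no p is given. With the GC trend of each library removed, 39 members rose and 1 fell for FedP against RuxP, and the median was 0.38. The share of all genes called in that setting is not given here. The mitochondrial share went the other way from the members' share, with 12.4 and 12.6% in FedP and 25.7 and 23.1% in RuxP. Without mitochondrially encoded genes the members' share was 13.1 and 13.0% in FedP and 10.0 and 10.5% in RuxP. The part of mitochondrial RNA in the values was not tested.

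**Figure D5:**
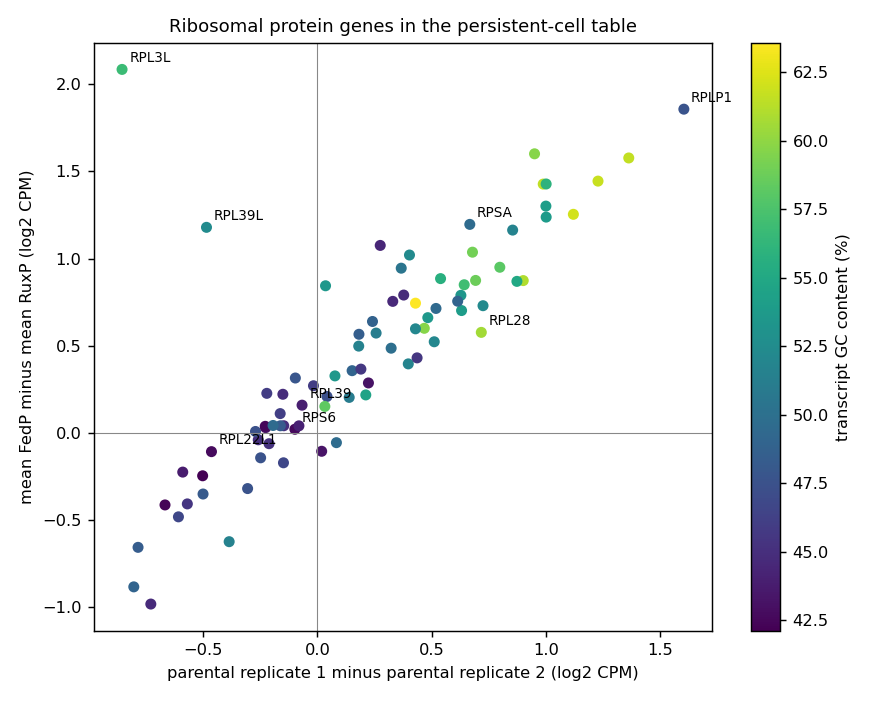
Mean FedP minus mean RuxP log2 CPM of each member (vertical) against parental replicate 1 minus parental replicate 2 (horizontal), coloured by transcript GC content in percent. RPLP1 lies highest among abundant genes on both axes, and most members lie along 1 diagonal. RPL3L and RPL39L, at low counts, lie off it.

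Other genes of the pathway gave few calls in this table. For RuxP against parental 0 of 30 biogenesis genes, 0 of 24 other TOP messages, 0 of 12 chaperones and importers and 0 of 21 translation control genes were called by edgeR. At an unadjusted p under 0.05 there were 7, 5, 4 and 2 of them, with no share of all genes given beside these counts. For FedP against parental the calls were the same except for NOB1, the endonuclease that trims 18S ribosomal RNA, which rose by 1.06 (adjusted p = 0.036). Of the 10 erythroid and megakaryocyte markers, 1 rose and 4 fell in RuxP, and 0 rose and 2 fell in FedP, among them PF4 and ITGB3 in both. Their summed level was 3691 and 3588 CPM in FedP, 1723 and 2011 in RuxP, and 4655 and 2905 in parental cells, and its part in the member values was not tested.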

How the data were processed

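Reads were demultiplexed with bcl2fastq, aligned with STAR 2.5.1a to GRCh38 and handled with edgeR, per the submitters' processing notes. Per the labels, the authors deposited tables of raw read counts. The counting program and its strand setting, annotation and kit were not given in the sources used here. Part of the BCI table has 24h in its headings where the labels give 48 h, and the labels were followed. Low counts were even in 59.8 to 73.1% of cases, so a fragment may stand for 2 counts. Repeated lines of a gene (116, 116 and 130) were left out.

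The members, lists and named genes were chosen with earlier results of these data known. Tables were fitted separately in R 4.3.3 with edgeR 4.0.16: filterByExpr by group, TMM, 1 quasi-likelihood fit over all groups of a table, no replicate block, 21908, 21328 and 15924 genes tested. Of members, 86, 85 and 85 passed the filter. CPM use TMM library sizes. The SE of a log2 fold change was taken from the F statistic. The code was tested on simulated data. Named genes are the 5 largest rises and falls called in a comparison at a mean of at least 4 CPM, fixed paralogue pairs and members of special role, and up to 4 called genes of a list. Alternatives were DESeq2 1.42.0 and its size factors, TMM without members, no low-count filter, only the groups compared, a replicate block and each library left out, and, added after seeing the data, no mitochondrially encoded genes, pseudogene counts added, crossed RuxP numbers and removal of each library's GC trend. Sequences are from RefSeq on GRCh38.p14, transcripts from GENCODE 29. Levels of the Y-linked member, and values of 1 other gene that the naming rule selects, are not reported here. Binomial intervals were not computed for shares, since each group has 2 libraries.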

Additional observations from a re-analysis of the deposited data

How the results depend on the processing

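Replicate numbers were treated as names. The correlation of the differences between 2 replicates ranged from -0.22 to 0.32 over pairs of groups across all genes tested, and from -0.71 to 0.77 across members. With the replicate block 1 member was called for BCI at 4 h, 1 for the difference of the BCI responses and 0 for FedP against parental, and other counts stayed within 1.5 times. With the 2 RuxP numbers crossed, 12 were called for RuxP against parental. By DESeq2, 1 was called for BCI at 4 h, 1 for the difference of the responses, 9 for RuxP and 6 for FedP against parental, and 38 for FedP against RuxP. With DESeq2 size factors FedP had 2 against parental and 1 against RuxP. Without a low-count filter there were 1 for the difference, 17 for the pair against BI-D1870, 3 for RuxP, 5 for FedP against parental and 31 for FedP against RuxP. With only the groups compared there were 3 for BCI at 4 h, 1 between DMSO times and 52 for FedP against RuxP. With mitochondrially encoded genes left out there were 1 for RuxP and 2 for FedP against parental. With the GC trend removed, among genes with a coding transcript, there were 1 for BCI at 4 h, 1 for the difference, 7 between DMSO times, 19 for RuxP, 13 for FedP against parental and 40 for FedP against RuxP.

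Leaving out 1 library gave 0 to 1 members for BCI at 4 h, 0 to 1 for the difference, 0 to 8 between DMSO times, 36 to 53 for BI-D1870, 29 to 37 for the pair, 2 to 11 for the pair against BI-D1870, and 0 to 37, 0 to 37 and 0 to 53 for RuxP, FedP and FedP against RuxP. A lone library left in a group is assumed to vary like the others. Shares of all genes called are given for the main fits only, and counts from other settings do not set members apart from other genes. The difference in the members' share of counts, without mitochondrially encoded genes, was 0.408 percentage points for BI-D1870, 0.393 for the pair and 2.80 for FedP against RuxP, and for the pair against BI-D1870 it turned from 0.0258 to -0.0146. The cause of these shifts was not tested. Scarce members such as RPL10L, RPL3L, RPL39L and RPS10 rest on few counts, and small differences there were not detectable at this depth.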
